A study of Mus musculus with 12 samples.

Results

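The AP-1 family was followed in ribosome pull-downs of the mouse small intestinal muscularis through 8 genes chosen by name, namely Fos, Fosb, Fosl1 and Fosl2 (the FOS members), Jun, Junb and Jund (the JUN members) and Atf3. All 8 were found among the 12975 genes of the count table. The 12 libraries came from 6 mice with an Rpl22HA allele and a glial CreERT2 driver, active in enteric glial cells (EGCs) after tamoxifen, which switches the ribosomal protein Rpl22 to an HA-tagged form. Mice aged 10 to 12 weeks had received 2 intraperitoneal injections of 100 µl tamoxifen at 15 mg/ml in Miglyol, and were killed 3 to 4 weeks after the first one. The controls carried the same alleles and had the same injections. Tissue was taken from 3 naïve animals (T0) or, in 3 further animals, 3 h after the bowel had been handled surgically (intestinal manipulation, T3), which injures the muscularis. The homogenate of each animal was split between an anti-HA antibody and an isotype control IgG, so that 4 groups of 3 libraries resulted. The IgG libraries hold RNA that was recovered without recognition of the tag, and served as the background for each HA library.

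AP-1 is a dimer of basic leucine zipper (bZIP) proteins that binds DNA and regulates transcription. JUN proteins pair with each other or with FOS proteins, whereas FOS proteins need a JUN-type partner, so the mix of members sets which dimers can form. Most FOS and JUN genes are immediate early genes: their mRNA rises quickly and transiently after growth factors, cytokines, injury or stress, without new protein synthesis. Atf3 is a stress-responsive bZIP protein that pairs with JUN proteins and often represses its targets, and it is a commonly used marker of injured neurons.

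The promoter windows of members that rose together are shown first, to set the sequence beside the shared change described further on. RefSeq windows of 300 bases (250 before to 50 after the transcript start, build GRCm38.p6) matched 7 of the 8 members, and Fosl1 had no entry. The Jund window (chr8:70697489-70697788) ends before the start of the gene in the GENCODE annotation (chr8:70698949-70700616), so for Jund the search covers a stretch upstream of that model. The Atf3 window (chr1:191183284-191183583, minus strand) lies inside its GENCODE gene (chr1:191170296-191218039). The Fosl2 window (chr5:32136222-32136521, plus strand) also lies inside its gene (chr5:32135801-32157842). These 2 windows therefore surround a transcript start within the model. Windows were searched on both strands for TGACTCA (the AP-1 site), TGACGTCA (the cyclic AMP response element, CRE), TGACATCA (a Jun-type variant of the AP-1 site) and the CArG box of serum response factor. TGACG, which is the start of the CRE, was added after the first searches were seen, and every TGACGTCA contains it. Neither TGACTCA (in 5.2% of 32851 windows of all genes), nor TGACGTCA (1.79%), nor a CArG box (1.63%) was found in the windows of the 7 members. TGACATCA, present in 3.62% of all windows, was found in that of Jun, 45 to 38 bases before the transcript start. TGACG was found in 4 of 7 members' windows (Fos, Fosb, Junb and Atf3) against 20.8% of all windows. Such matches describe the letters only. Sites more than 250 bases before the transcript start lay outside the search, so a motif not found here may still lie further upstream. The windows of Fos at chr12:85473640-85473939 (plus strand), Fosb at chr7:19309996-19310295 (minus strand), Jun at chr4:95052173-95052472 (minus strand) and Junb at chr8:84978699-84978998 (minus strand) are printed from 5′ to 3′ of the gene's strand, and capitals mark TGACG in Fos, Fosb and Junb and TGACATCA in Jun.
Fos: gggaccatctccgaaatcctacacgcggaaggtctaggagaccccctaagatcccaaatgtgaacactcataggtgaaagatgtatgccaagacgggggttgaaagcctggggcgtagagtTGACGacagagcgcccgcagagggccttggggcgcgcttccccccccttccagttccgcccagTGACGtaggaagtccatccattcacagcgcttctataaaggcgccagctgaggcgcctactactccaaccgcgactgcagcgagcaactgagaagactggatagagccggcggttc
Fosb: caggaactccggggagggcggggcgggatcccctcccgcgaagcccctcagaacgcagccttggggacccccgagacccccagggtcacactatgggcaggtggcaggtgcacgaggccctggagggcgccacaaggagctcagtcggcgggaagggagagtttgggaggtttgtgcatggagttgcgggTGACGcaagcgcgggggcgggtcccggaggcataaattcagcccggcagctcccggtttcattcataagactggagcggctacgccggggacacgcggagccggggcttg
Jun: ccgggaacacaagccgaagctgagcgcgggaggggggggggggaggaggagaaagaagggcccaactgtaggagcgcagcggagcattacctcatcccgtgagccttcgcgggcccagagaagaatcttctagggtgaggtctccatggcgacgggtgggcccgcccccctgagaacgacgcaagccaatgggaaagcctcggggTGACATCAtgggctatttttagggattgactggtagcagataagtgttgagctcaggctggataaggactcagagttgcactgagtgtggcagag
Junb: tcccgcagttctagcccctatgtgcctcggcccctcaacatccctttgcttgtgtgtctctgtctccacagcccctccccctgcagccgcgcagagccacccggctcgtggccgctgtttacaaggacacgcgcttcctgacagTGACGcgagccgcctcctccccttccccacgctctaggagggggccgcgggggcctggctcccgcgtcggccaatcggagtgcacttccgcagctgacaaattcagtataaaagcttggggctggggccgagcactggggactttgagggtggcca

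The counts behind each value differed strongly between the groups. Totals were 1221788 to 2870591 counts with HA and 88136 to 1289833 with IgG, lowest for IgG T3 (88136 to 248522), so a count of 3, the most that a 0 allows, stood for 1.05 to 2.46 CPM (counts scaled to a common library total) in HA and for 2.33 to 34.04 CPM in IgG. Such limits, and the counting intervals below, cover counting error only. The pull-down was checked with 12 glial markers such as Sox10, S100b and Gfap. Their summed level was 15890 to 20510 CPM across the HA libraries and 1143 to 4051 CPM across the IgG libraries. Apoe made up most of this sum, with means of 13820 and 12940 CPM in HA T0 and T3 and 1511 and 1970 CPM in IgG. Of the 11 glial markers tested, 11 were higher in HA at T0 and 9 at T3, against 16% and 11.8% of all genes tested. Here and throughout, a gene was called when its p-value from edgeR's quasi-likelihood test, adjusted over all genes tested, was under 0.05, and genes with too few counts in a comparison were filtered out of it. HA libraries were not free of other cells: 10 smooth muscle markers summed to 13530 to 26100 CPM in HA and 43300 to 68790 CPM in IgG. Markers of interstitial cells of Cajal were also higher in HA, with 3 of 4 tested at T0 (Kit, Ano1 and Thbs4) and 3 of 3 at T3, and summed to 2741 to 3485 CPM in HA T0 and 255.4 to 357.4 CPM in IgG T0. Because the libraries are bulk samples, fewer cells of a type and less RNA per cell cannot be told apart, nor can a change in ribosome-bound RNA within EGCs be told from one in the RNA that came down from other cells.

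AP-1 transcripts as a group rose steeply within 3 h. The 8 members together accounted for 382.4 ± 62.3 CPM (mean ± SD, n = 3) in HA T0 and 4509 ± 80.1 CPM in HA T3, and for 410.5 ± 134 CPM in IgG T0 and 4281 ± 423 CPM in IgG T3. Expressed as a share of all counts, this was 0.0314 to 0.0435% of an HA T0 library and 0.442 to 0.458% of an HA T3 library. The summed level therefore lay close together in the HA and IgG pull-downs at either time, and the T0 and T3 libraries did not overlap. In the HA pull-downs, all 8 members were tested and all 8 were higher at T3, where 18.7% of the 9441 genes tested were called higher. All 8 also had every T3 library above every T0 library, a separation seen in 15.6% of genes. In the IgG pull-downs, 7 members were tested and all 7 were higher at T3, against 4.43% of 5219 genes called higher, and 6 of them had T3 libraries above all T0 libraries (13.4% of genes). The median log2 fold change of the members was 4.62 in HA and 5.07 in IgG, beside -0.02 over all genes tested in either pull-down.

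**Figure D1:**
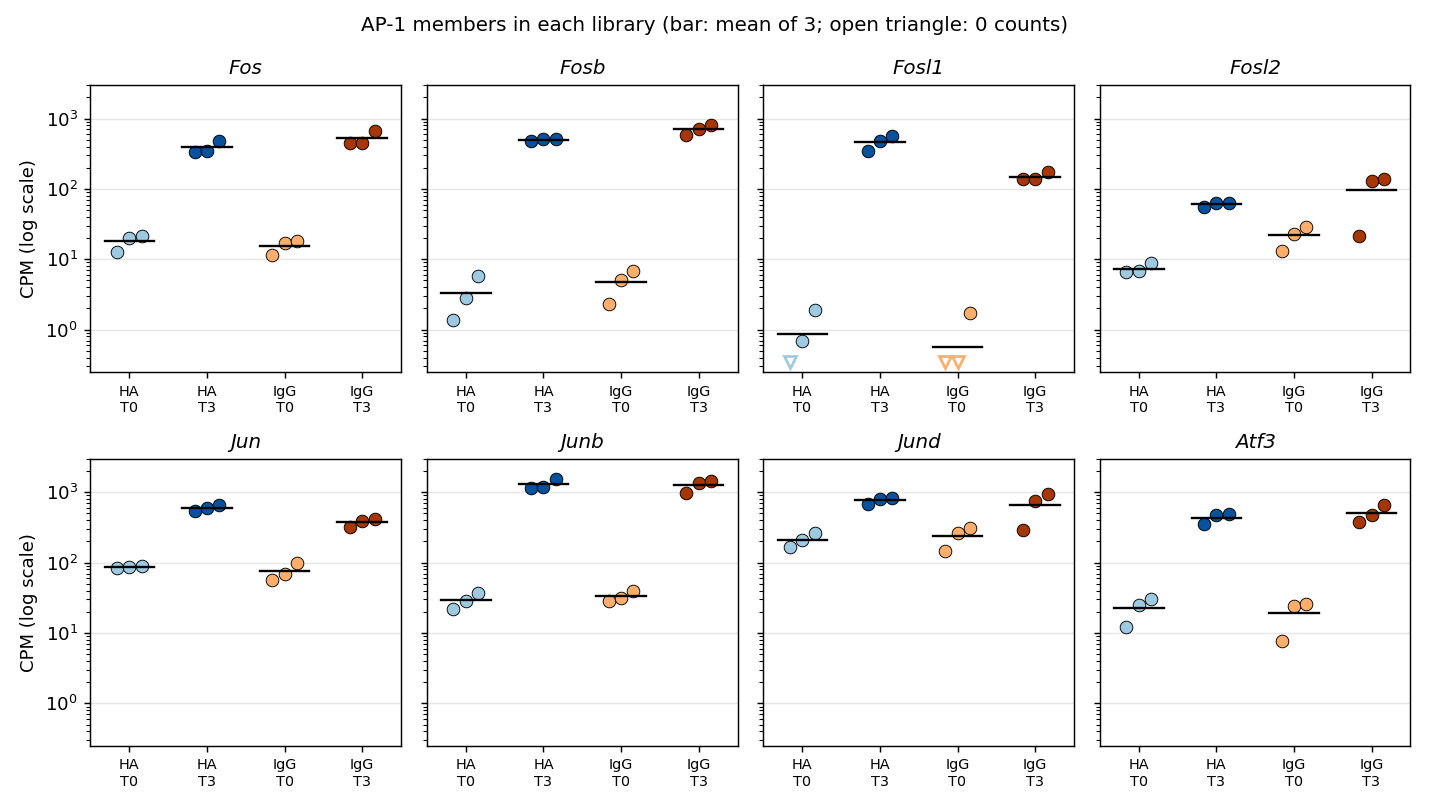
Level of each AP-1 member in every library, in CPM on a log axis, by pull-down antibody and time. Each point is 1 library, bars are means of 3 libraries and open triangles mark libraries with 0 counts. For each member the HA T3 points lie above all T0 points of both antibodies, with the lowest HA T3 and the highest T0 value at 55.66 and 29.14 CPM for Fosl2 and at 688.8 and 315.4 CPM for Jund. IgG T3 replicate 3 stands low for Fosl2 and Jund.

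Among the FOS members, Fos, the prototype immediate early gene and the partner that gives JUN dimers their strong transactivation, was low in naïve tissue. Its level was 21.1, 12.85 and 20.2 CPM in HA T0 and 351.1, 486.1 and 339.5 CPM in HA T3. The IgG libraries held 18.0, 17.1 and 11.6 CPM at T0 and 453.8, 662.9 and 450.7 CPM at T3. Every T3 library thus exceeded every T0 library, with either antibody. The log2 fold change from T0 to T3 was 4.68 in HA (SE 0.237, adjusted p = 5.79e-12, edgeR quasi-likelihood test) and 5.07 in IgG (SE 0.35, adjusted p = 5.8e-07). Within each T3 animal, Fos was lower in the HA than in the IgG library, at ratios of 0.774, 0.733 and 0.753, although the group difference did not pass the test (log2 fold change -0.30, SE 0.266, adjusted p = 0.457).

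Fosb, whose alternatively spliced short form is known to accumulate with repeated stimulation, went from near the detection limit to a level in the range of Fos. It was counted 15, 5 and 4 times in the HA T0 libraries (5.76, 2.79 and 1.39 CPM) and 629, 715 and 657 times in HA T3 (514.8, 478.1 and 511.5 CPM). In IgG it was at 5.15, 6.86 and 2.33 CPM at T0 and at 816.9, 706.4 and 579.4 CPM at T3. The T3 libraries again lay above all T0 libraries. The log2 fold change was 7.48 in HA (SE 0.312, adjusted p = 8.24e-13) and ranked 6 among the 9441 genes by size of increase. At T3 the 3 HA libraries lay below the 3 IgG libraries without overlap, an order that 16.4% of 7200 genes showed. The fitted difference did not pass the test (log2 fold change -0.37, 95% interval -0.90 to 0.15, adjusted p = 0.312).

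Fosl1, which encodes FRA-1, a FOS protein without the strong transactivation domain of FOS that is linked to cell migration and wound responses, showed the widest contrast between the times. It was counted 5, 0 and 2 times in HA T0 and 419, 713 and 716 times in HA T3, or 1.92, 0 and 0.70 CPM against 342.9, 476.8 and 557.5 CPM. The IgG libraries held 0, 1 and 0 counts at T0, and 12, 16 and 34 counts at T3 (136.2, 173.9 and 136.8 CPM). Fosl1 was thus close to undetected in naïve tissue at this depth and present in every T3 library. Pooled over libraries, the ratio of T3 to T0 in HA was 479 (95% counting interval 232 to 1190, from 1848 and 7 counts). In IgG the ratio was 327, with a counting interval from 56.6 to 13100, since it rested on 62 counts and 1 count. The fitted log2 fold change was 9.07 in HA (adjusted p = 3.24e-11), the first of 9441 genes by size and the first or second in each alternative fit. Annotation places the 3′ end of Fosl1 (chr19:5447547-5455946, plus strand) over Ccdc85b on the opposite strand, a gene that had at most 7 counts in any library.

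Fosl2, encoding FRA-2, a relative of FRA-1, was the least abundant member at T3 in HA. It measured 8.83, 6.71 and 6.62 CPM in HA T0 and 55.7, 63.5 and 63.1 CPM in HA T3, with no overlap. The log2 fold change in HA was 3.29 (SE 0.26, adjusted p = 4.72e-09). In IgG it was at 23.2, 29.1 and 13.2 CPM at T0 and at 136.2, 21.7 and 128.8 CPM at T3. The IgG times overlapped because T3 replicate 3 held only 2 Fosl2 counts, and the gene was left out of the IgG test by the filter on low counts. It was tested in 10 alternative fits and called higher in 6 of them, with log2 fold changes of 1.80 to 2.69.

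Among the JUN members, Jun, the strongest transactivator of the group and the substrate of the JNK kinases, was already present in naïve tissue. It was at 87.9, 91.1 and 84.7 CPM in HA T0 and at 550, 593.1 and 652.4 CPM in HA T3. In IgG it was at 69.55, 99.4 and 57.4 CPM at T0 and at 317.7, 423.8 and 394.3 CPM at T3. The T3 libraries exceeded those of T0 with both antibodies, and at T3 every HA library exceeded every IgG library. The log2 fold change with time was 3.03 in HA (SE 0.181, adjusted p = 7.26e-11) and 2.33 in IgG (SE 0.309, adjusted p = 0.000313).

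Junb, which can oppose JUN at some targets and is itself an immediate early gene, became the member with the highest count at T3. It rose from 36.9, 28.5 and 22.3 CPM in HA T0 to 1540, 1149 and 1179 CPM in HA T3. The IgG libraries went from 28.3, 39.4 and 31.8 CPM to 1452, 967.2 and 1368 CPM. Levels in HA and IgG overlapped at T0 and at T3 alike. With time its log2 fold change was 5.72 in HA (SE 0.241) with the lowest adjusted p of all 8 members (4.91e-13), and 5.22 in IgG (SE 0.343, adjusted p = 4.69e-07).

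Jund, which unlike its relatives is usually expressed in resting cells and is counted as a brake on growth, had the highest level at T0 and the smallest change. It was at 211.5, 262.6 and 165.5 CPM in HA T0 and at 816, 688.8 and 810.5 CPM in HA T3, without overlap. In HA its log2 fold change was 2.12 (SE 0.196, adjusted p = 4.68e-08). In IgG the values were 260.2, 315.4 and 144.2 CPM at T0 and 953.1, 293.4 and 756.5 CPM at T3. These groups overlapped, because T3 replicate 3 (27 counts) lay below the T0 replicate 2 library. The IgG log2 fold change of 1.49 (SE 0.405) passed narrowly, with an adjusted p of 0.0479. It was called in 7 of 13 alternative fits, and lost, among others, without IgG T0 replicates 1, 2 or 4 or IgG T3 replicates 1 or 4, with adjusted p-values from 0.000354 to 0.201 over all 13.

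Atf3 was at 25.0, 30.2 and 12.2 CPM in HA T0 and at 352.8, 487.5 and 467.9 CPM in HA T3. In IgG it was at 25.8, 24 and 7.75 CPM at T0 and at 476.5, 662.9 and 374.2 CPM at T3. The T3 libraries lay far above those of T0 with both antibodies, whereas HA and IgG overlapped at both times. Its log2 fold change was 4.57 in HA (SE 0.3, adjusted p = 3.22e-08) and 4.80 in IgG (SE 0.435, adjusted p = 1.09e-05).

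**Figure D2:**
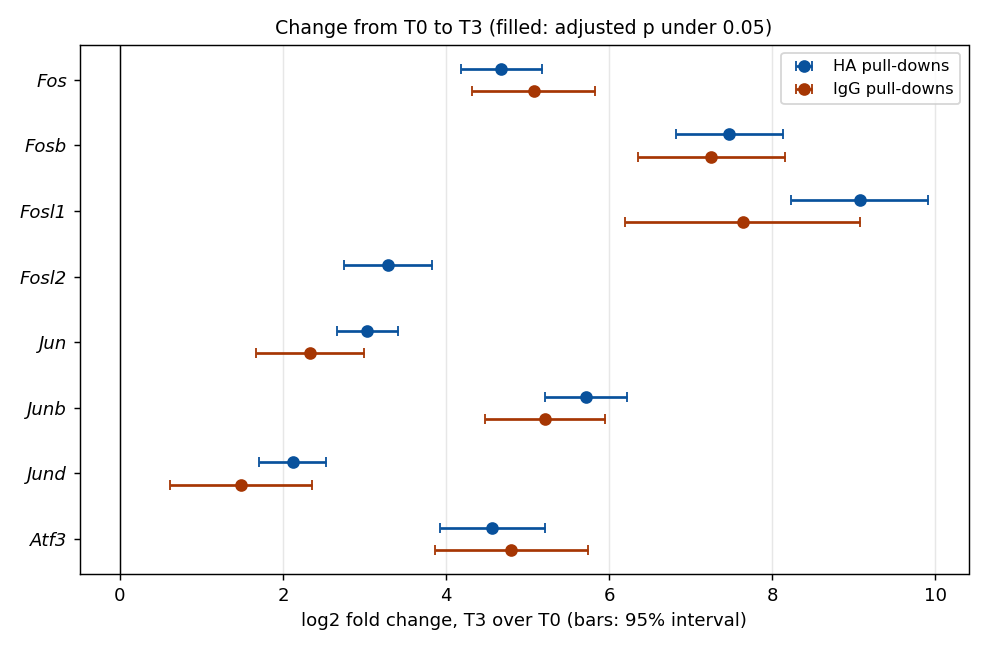
Fitted log2 fold change from T0 to T3 of each member in the HA (blue) and IgG (brown) pull-downs, with 95% intervals; filled points passed an adjusted p of 0.05. All values lie to the right of 0, from 1.49 for Jund in IgG to 9.07 for Fosl1 in HA, and Fosl2 was not tested in IgG.

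The members lowest in naïve HA libraries, Fosl1 and Fosb, had the largest fold changes. Fosl2, the next lowest there (7.39 ± 1.25 CPM), rose less than Junb, Fos and Atf3. Ranked by change in HA, the members ran from Fosl1 and Fosb through Junb, Fos and Atf3 to Fosl2, Jun and Jund. The 95% intervals of neighbours in this order overlapped for Fos (4.18 to 5.17) and Atf3 (3.92 to 5.21) and for Fosl2 (2.75 to 3.83) and Jun (2.66 to 3.41), which were therefore not separated by their error. Those of Fosl1 (8.23 to 9.91) and Fosb (6.82 to 8.13) did not overlap, but the fitted value of Fosl1 depends on the handling of its 7 counts at T0. All 8 HA changes were called in each of the 13 alternative fits. Scaling by total counts moved the median log2 fold change of all genes in HA from -0.02 to -0.28 and the share of calls that were higher from 55.4% to 31.4%, and the members remained called higher with it.

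The time change was measured against shifts of other cell types in the same libraries. Markers of mesothelium (5 of 5 tested), fibroblasts (5 of 7), interstitial cells of Cajal (3 of 4), smooth muscle (4 of 10) and macrophages (3 of 6) were lower in HA at T3, and 0 of them were higher, where 15.1% of all genes were called lower. Neutrophil and monocyte markers, of which 4 of 9 were in the table, summed to 6.27 to 16.2 CPM in HA T0 and 22.07 to 116.2 CPM in HA T3. In IgG they summed to 26.36 to 39.42 and 43.47 to 249.6 CPM. Only S100a8 and S100a9 rose, in HA from means of 0.128 and 0.686 CPM to 7.52 and 44.54 CPM. The means of Ccr2 and Plac8 fell, from 2.79 and 8.62 to 1.52 and 2.38 CPM in HA, and from 12.85 and 21.96 to 3.78 and 9.93 CPM in IgG. Of 11 glial markers tested in HA, 3 were higher and 1 lower, and of 10 neuronal ones 4 were higher (18.7% of all genes higher). The summed glial markers lay at 16490 to 20510 CPM in HA T0 and 15890 to 20230 CPM in HA T3. Apoe made up most of that sum, at 13820 ± 1890 and 12940 ± 1880 CPM, so the sum says little about the other glial markers. Gfap, among the higher ones, went from 118.3 ± 19.7 to 1715 ± 226 CPM. Gpr37l1, the lower one, went from 1723 ± 154 to 784.9 ± 218 CPM. The part of these shifts in the AP-1 change was not tested.

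The mix of members changed with the total. Counts were taken from a fixed window at the 3′ end and were therefore not divided by transcript length. Jund contributed 55.4% ± 4.34 of the AP-1 counts in HA T0 and 17.1% ± 1.34 in HA T3 (mean ± SD, n = 3). Junb went from 7.64% ± 1.42 to 28.6% ± 4.73, Fosb from 0.844% ± 0.529 to 11.1% ± 0.289 and Fosl1 from 0.234% ± 0.241 to 10.2% ± 2.35. Jun made up 23.3% ± 3.22 and then 13.3% ± 1.05 of the counts, although its own level rose. The shares moved the same way in IgG, where Jund went from 57.8% ± 3.56 to 15.2% ± 6.76 and Junb from 8.61% ± 2.83 to 29.3% ± 4.12.

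Counts of the FOS members per count of the JUN members were 0.0585 to 0.112 in HA T0 and 0.435 to 0.619 in HA T3, and 0.116 to 0.129 and 0.514 to 0.929 in IgG. Junb was counted 0.109 to 0.174 times as often as Jund in HA T0 and 1.45 to 1.89 times as often in HA T3, so the order of both reversed. In IgG the same ratio was 0.109 to 0.22 at T0 and 1.52 to 3.3 at T3. Naïve libraries were thus dominated by JUN members, above all Jund, and in T3 libraries Junb and the FOS members together took a larger share of the counts than in T0 libraries. These ratios are descriptions without a test.

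**Figure D3:**
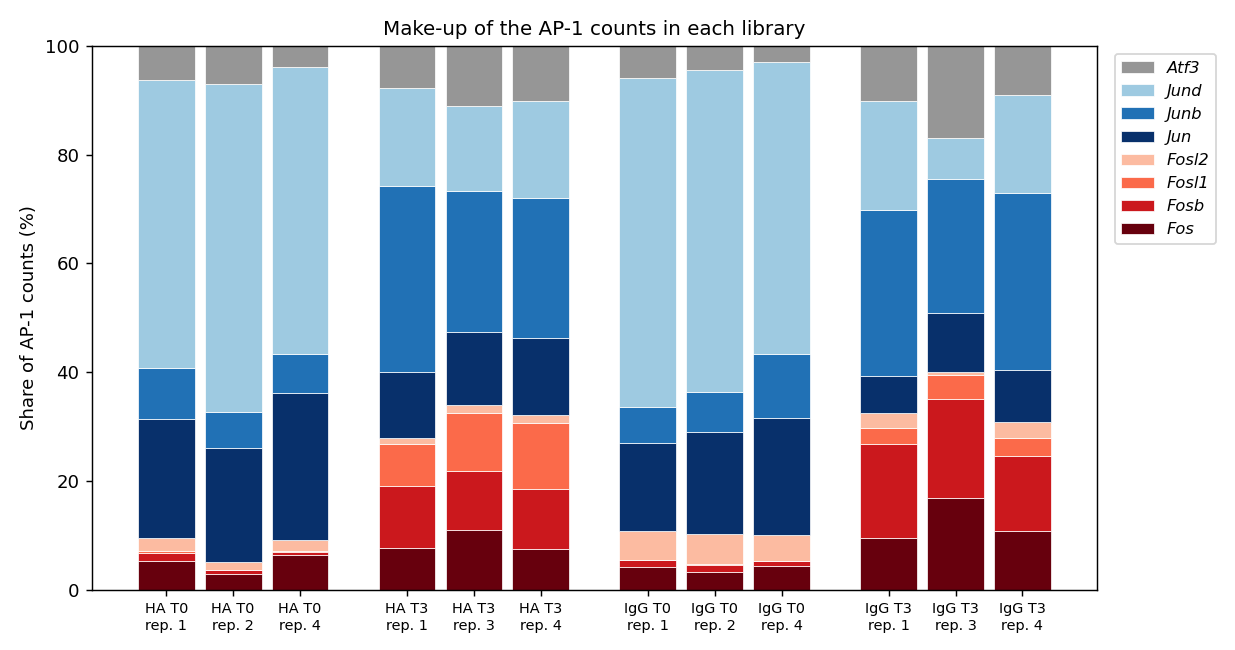
Share of each member in the summed AP-1 counts of each library, in percent, with FOS members in red, JUN members in blue and Atf3 in grey. Jund fills at least 52.8% of every T0 bar and at most 20.1% of a T3 bar, while the FOS members go from 5.14 to 10.8% of a T0 bar to 28 to 40% of a T3 bar.

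The comparison of HA with IgG within a time asked whether a member was enriched with the tagged ribosomes. At T0, 6 members passed the filter on low counts and 1 differed, where 30.3% of 9823 genes were called in either direction and 14.4% were called lower. That member was Fosl2, which was lower in HA (7.39 ± 1.25 CPM) than in IgG (21.83 ± 8.06 CPM), with a log2 fold change of -1.50 (SE 0.419, adjusted p = 0.0147). Its HA libraries lay below all IgG libraries, as did those of 20.1% of genes, and below the IgG partner in each animal, at ratios of 0.381, 0.23 and 0.502. The call was lost without HA T0 replicate 4 (adjusted p = 0.0561) or IgG T0 replicate 2 (adjusted p = 0.0849). The other 5 members tested overlapped between HA and IgG, with log2 fold changes from -0.21 for Junb to 0.37 for Atf3. Fosb and Fosl1 were filtered out at T0.

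At T3, all 8 members were tested and 2 were higher in HA, where 11.8% of 7200 genes were called higher. Fosl1 was at 459.1 ± 108 CPM in HA and 148.9 ± 21.6 CPM in IgG, a log2 fold change of 1.73 (95% interval 1.11 to 2.35, adjusted p = 0.000431). The HA library of each animal held 2.52, 2.74 and 4.07 times the Fosl1 level of its IgG partner. The call was made in all 13 alternative fits, with adjusted p-values from 6.74e-08 to 0.00808. Jun was at 598.5 ± 51.4 CPM in HA and 378.6 ± 54.8 CPM in IgG, a log2 fold change of 0.75 (95% interval 0.21 to 1.29, adjusted p = 0.0447), with ratios of 1.73, 1.4 and 1.65 within the animals. Its HA libraries, like those of Fosl1, lay above all IgG libraries, an order shown by 19.4% of genes. The Jun call was made in 7 of 13 alternative fits (adjusted p from 0.00305 to 0.179) and was lost without any 1 of the 3 HA T3 libraries, without IgG T3 replicate 1, and with scaling by total counts or by RLE, the size factor method of DESeq2.

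None of the other 6 members was called between HA and IgG at T3, and the intervals of their log2 fold changes reached at most from -1.50 to 0.98. The smallest fitted differences were those of Atf3 (log2 fold change -0.08, 95% interval -0.65 to 0.49) and Junb (0.11, 95% interval -0.45 to 0.68). Mean levels were 436.1 ± 72.8 CPM in HA and 504.5 ± 146 CPM in IgG for Atf3, and 1289 ± 217 and 1263 ± 259 CPM for Junb. Fosl2 was at -0.68 (adjusted p = 0.227) and passed the test only without IgG T3 replicate 3 (adjusted p = 0.0369), the library in which it had 2 counts. Summed glial markers in these libraries stood at 15890 to 20230 CPM in HA and 1143 to 4051 CPM in IgG, so the AP-1 members other than Fosl1 and Jun were not called enriched in pull-downs in which 9 of 11 glial markers were.

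**Figure D4:**
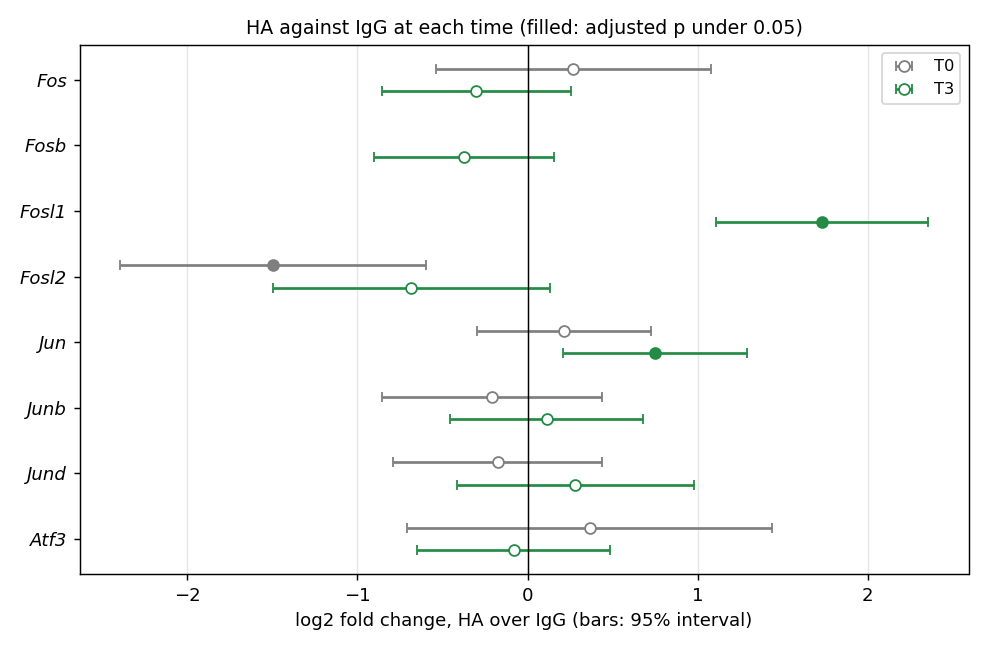
Fitted log2 fold change of HA over IgG for each member at T0 (grey) and T3 (green), with 95% intervals; filled points passed an adjusted p of 0.05. The filled points are Fosl2 at T0, at -1.50, and Fosl1 and Jun at T3, at 1.73 and 0.75; Fosb and Fosl1 were not tested at T0.

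A fit of all 12 libraries with an interaction term asked whether a member rose more with one antibody than with the other. None of the 8 members was called, where 0.33% of 10314 genes were (34 genes with edgeR, and 1082 at an unadjusted p under 0.05). DESeq2 and the fit with the animal as a replicate block also called 0 members, although the block raised the count of all genes from 34 to 156. The smallest p-value among the members was that of Jun, whose rise was larger in HA by 0.78 on the log2 scale (95% interval 0.09 to 1.48, unadjusted p = 0.0289, adjusted p = 0.415). The median of all genes in this fit was 0.18. The interval of Fosl1 ran from -3.049 to 5.202, since it had 7 counts in HA T0 and 1 in IgG T0, so the difference in its rise was not measurable at this depth. For Fos (-1.19 to 0.52), Fosb (-1.06 to 1.48) and Junb (-0.20 to 1.37) a difference in either direction remained within the interval.

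Other bZIP factors that pair with AP-1 proteins moved upwards as well. Of 16 listed partners, 11 were tested in HA over time, 8 were higher and 0 lower at T3 (18.7% of all genes higher), with a median log2 fold change of 2.21 beside -0.02 over all genes. Maff, a small MAF protein without a transactivation domain, went from 4.91 ± 0.453 to 214.2 ± 56.2 CPM (5.69 on the log2 scale, SE 0.267, adjusted p = 1.66e-12). Mafk, of the same small MAF group, went from 39.2 ± 5.34 to 197.7 ± 6.66 CPM (2.60 on the log2 scale, SE 0.194, adjusted p = 2.04e-09). Atf4, the effector of the integrated stress response, went from 302.6 ± 53.2 to 1193 ± 99.6 CPM (2.25, SE 0.181, adjusted p = 6.28e-09). Jdp2, a repressor that dimerises with JUN proteins, was higher in HA (1.14, SE 0.224, adjusted p = 0.000589) and in IgG (2.21, SE 0.408, adjusted p = 0.00412). In IgG 3 of 7 partners tested were higher (4.43% of all genes), among them Mafk (2.33) and Atf4 (1.42).

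The upstream kinases were mostly not called. Of 15 genes of the MAP kinase cascades that act on AP-1, 11 were tested in HA and 3 were higher (18.7% of all genes), with a median of 0.27. The higher ones were Map2k3, an activating kinase of p38 (2.71, SE 0.208, adjusted p = 3.04e-09), Map3k8, also known as TPL2 (3.42, SE 0.397, adjusted p = 1.26e-06), and Rps6ka3, a kinase downstream of ERK (1.57, SE 0.397, adjusted p = 0.00492). Mapk3, encoding ERK1, was at 842.4 ± 53 CPM in HA T0 and 844.1 ± 103 CPM in HA T3 (fitted log2 fold change 0.27, adjusted p = 0.231). Of 6 SRF and ternary complex factors, which drive Fos transcription, 5 were tested, 0 were higher and 1 was lower (15.1% of all genes lower). The lower one was the coactivator gene Mkl2 (log2 fold change -1.80, SE 0.488, adjusted p = 0.00746). Srf itself was at 153.1 ± 36 CPM in HA T0 and 135.5 ± 8.88 CPM in HA T3 (fitted log2 fold change 0.09, adjusted p = 0.76). In IgG, 1 of 8 kinases (Map2k3, 1.79) and 0 of 3 SRF factors passed, in either direction, against 5.46% of all genes.

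A list of 12 genes that limit AP-1 held factors of mRNA decay, phosphatases of the MAP kinases and genes of protein turnover. Of these, 10 were tested in HA, 6 were higher and 1 was lower, with a median of 0.80. Of all genes tested, 18.7% were called higher and 15.1% lower. The 6 higher ones were decay or phosphatase genes, whereas the ubiquitin ligase genes Fbxw7 (log2 fold change -0.62, adjusted p = 0.0622) and Itch (-0.50, adjusted p = 0.308) did not pass the test. Not every decay gene was called, as Tob1 was at 0.16 (adjusted p = 0.654). Zfp36, which encodes the mRNA decay factor tristetraprolin, went from 14.9 ± 1.28 to 166.4 ± 42.5 CPM (3.74, SE 0.232, adjusted p = 1.33e-10). Dusp1, a phosphatase of p38 and JNK, went from 20.9 ± 2.12 to 120.9 ± 45.8 CPM (2.80, SE 0.254, adjusted p = 6.82e-08), and Btg2, which promotes deadenylation, from 17.3 ± 6.57 to 144.9 ± 29.8 CPM (3.35, SE 0.277, adjusted p = 8.77e-08). The lower gene was Det1, a component of a ubiquitin ligase for JUN (-2.54, SE 0.624, adjusted p = 0.00375), which was at 9.30 ± 2.74 CPM in HA T0 and 1.32 ± 1.2 CPM in HA T3. The same decay and phosphatase genes Zfp36, Dusp1 and Btg2 were the 3 of 5 that were higher in IgG (4.43% of all genes), by 3.16, 3.01 and 2.55 on the log2 scale. The 2 not called in IgG were Zfp36l1 (0.53, adjusted p = 0.648) and Tob1 (0.53, adjusted p = 0.513).

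Of 18 genes that textbooks give as AP-1 targets, 15 were in the table and 11 were tested in HA over time. Of these, 10 were higher and 0 lower at T3, with a median log2 fold change of 4.46. Of all genes tested, 18.7% were called higher and 15.1% lower. Hbegf, a growth factor of the EGF family, went from 20.1 ± 4.97 to 549.6 ± 31 CPM (5.02, SE 0.222, adjusted p = 8.24e-13). Timp1, an inhibitor of matrix metalloproteinases, went from 22.6 ± 7.27 to 435.4 ± 48.2 CPM (4.51, SE 0.237, adjusted p = 1.03e-11), and Plaur, the urokinase receptor, from 3.00 ± 0.825 to 85.7 ± 21.9 CPM (5.12, SE 0.31, adjusted p = 9.17e-11). The gene not called was Mmp9, at 68.85 ± 45.1 CPM in HA T0 and 16.13 ± 1.71 CPM in HA T3 (log2 fold change -1.83, SE 0.825, adjusted p = 0.164). In IgG 5 of 7 targets tested were higher (4.43% of all genes), Hbegf (4.40) and Plaur (3.10) among them.

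Several of the targets differed between HA and IgG already in naïve tissue. At T0, 4 of 7 tested were higher in HA (16% of all genes), namely Hbegf (2.315 on the log2 scale), Ccnd1 (1.79), Timp1 (1.52) and Cd44 (1.35), and Ptgs2 was lower (-3.42). The list was compared again at T3. Of 10 tested, 6 were higher in HA (11.8% of all genes) and 0 lower, with a median log2 fold change of 1.85 beside 0.02 over all genes. Timp1 was at 435.4 ± 48.2 CPM in HA and 39.73 ± 26.7 CPM in IgG (3.30, SE 0.374, adjusted p = 1.17e-05). Hbegf was at 549.6 ± 31 and 102.9 ± 72 CPM (2.71, SE 0.382, adjusted p = 8.77e-05), and Plaur at 85.7 ± 21.9 and 41.5 ± 11.1 CPM (1.17, SE 0.407, adjusted p = 0.0451). Among the other lists at T3, 1 of 10 partners was higher in HA, namely Maff (1.55, SE 0.371, adjusted p = 0.00551). Of 12 kinase genes tested, Mapk3 was higher in HA (1.11, adjusted p = 0.0066). Map3k1 (-2.82, adjusted p = 0.00294) and Rps6ka3 (-1.90, adjusted p = 0.00548) were lower. Of 8 AP-1 regulators, 1 was lower in HA, namely Dusp1 (log2 fold change -0.91, SE 0.305, adjusted p = 0.0375), and 0 of 4 SRF factors were called. Of all genes tested, 11.8% were called higher and 10.2% lower. All of these lists were written with earlier results of the same data known, and each describes these libraries only.

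**Figure D5:**
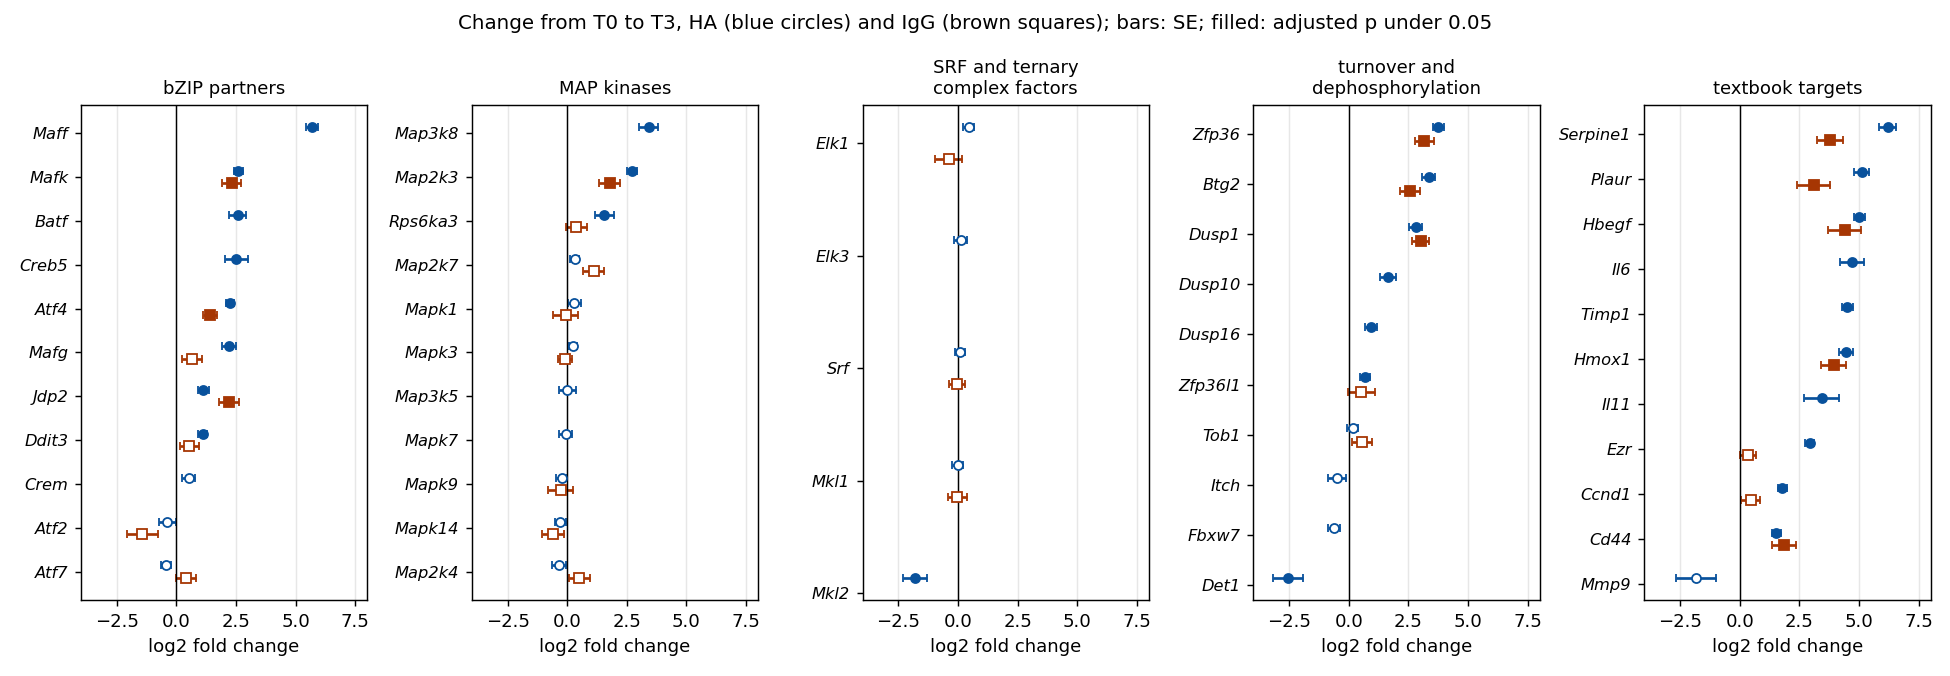
Log2 fold change from T0 to T3 of the listed partners, kinases, SRF and ternary complex factors, AP-1 regulators and textbook targets, in HA (blue circles) and IgG (brown squares) with SE bars; filled symbols passed an adjusted p of 0.05. In HA, 8 of 11 partners, 3 of 11 kinases, 0 of 5 SRF and ternary complex factors, 6 of 10 regulators and 10 of 11 targets lie to the right of 0 with filled circles. Of all genes tested in HA, 18.7% were called higher.

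The genes outside the family whose log2 CPM followed a member most closely over the 12 libraries were ranked by Pearson's r among 10306 genes. The libraries form a T0 and a T3 cluster, so these values mainly describe a like separation of the times. The closest for Fosl1 was Sphk1, a sphingosine kinase (r = 0.996), which was also the closest for Jun (0.992). The closest for Junb was Nfkbia, the inhibitor of NF-kB (0.990), for Fos Ifrd1 (0.988), for Fosb the chemokine gene Ccl7 (0.990) and for Atf3 Arc (0.987). The lowest best match was that of Jund, with Errfi1, a feedback inhibitor of the EGF receptor, at 0.951, and then that of Fosl2, with Bach1, a bZIP repressor, at 0.962.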

How the data were processed

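RNA was measured in 12 libraries, 1 HA and 1 IgG pull-down from each of 6 animals. Deposited were raw counts of unique molecular identifiers (UMIs) for each gene. Libraries were made by the authors with a bulk form of MARS-seq, a 3′ end method. According to the submitters' processing notes and design text, reads were trimmed by the authors (cutadapt), aligned to mm10 with STAR 2.4.2a, and unique alignments were counted with HTSeq in a window at each annotated 3′ end. Their normalisation with DESeq2 1.26.0 is not part of the counts used here. Whether counting used strand is not given in the sources used here, so reads of overlapping antisense genes may not be separable.

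The test was that of edgeR 4.0.16 under R 4.3.3 (quasi-likelihood, robust estimation, TMM scaling, filterByExpr), with Benjamini-Hochberg adjustment over all genes tested and calls at an adjusted p under 0.05. The 4 comparisons of 2 groups used only their 6 libraries, and the interaction used all 12. Printed CPM values, their sums and the overlap of libraries use library totals without TMM scaling. A fitted fold change can therefore differ from the ratio of the printed means, in small changes also in direction. Standard errors were derived from the F statistic and 95% intervals from its degrees of freedom. Pooled ratios have exact conditional counting intervals. The procedure was tested on simulated counts, with the same spread set for every gene and changes set only in genes above a minimum mean level. These settings differ from the real libraries, and no result above rests on that run. Library totals were 88136 to 2870591 counts. Whether libraries shared a preparation batch is not stated, so the 3 libraries per group give the only estimate of spread.

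HA and IgG libraries with the same number and time came from 1 split homogenate. Their deviations from the group means correlated at 0.268, 0.269 and 0.273 at T0 and 0.162, 0.153 and 0.0886 at T3. T0 and T3 libraries with the same number came from different animals. Named genes were all 8 members, list genes with the smallest p-value in HA over time or needed as partner or regulator, and the genes most alike in pattern. Members and lists were chosen with earlier results of these data known. Alternatives were other scalings (RLE, total counts), other filters, DESeq2 1.42.0, an added minimum log2 fold change of 1, the replicate block, a fit of all 12 libraries and leaving out each library. Gene positions follow GENCODE on mm10 and promoter windows RefSeq on GRCm38.p6.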

Additional observations from a re-analysis of the deposited data

Results flagged for a closer look

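Ezr, a textbook AP-1 target that encodes the membrane-cytoskeleton linker ezrin, was called by the interaction test of antibody and time. Its rise from T0 to T3 was larger in HA than in IgG by 2.663 on the log2 scale (adjusted p = 0.00072, edgeR quasi-likelihood test over 10314 genes). Ezr went from 71.57 ± 9.51 to 454.7 ± 86 CPM in HA (mean ± SD, n = 3) and from 100.8 ± 21.2 to 129.4 ± 23.7 CPM in IgG. The same test called Kit, a marker of interstitial cells of Cajal, at -2.063 (HA change minus IgG change, log2 scale, adjusted p = 0.036). Kit was at 970.8 ± 59 CPM in HA T0 and 373.9 ± 90.4 CPM in HA T3, and at 76.89 ± 16.7 and 180.7 ± 101 CPM in IgG. The Kit call depended on single libraries. It was lost without HA T0 replicates 2 or 4, HA T3 replicates 3 or 4, IgG T0 replicate 4 or IgG T3 replicate 3. In each of those fits 0 genes had a called negative interaction. No other gene of the lists passed the interaction test.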

How the results depend on the processing

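The 8 calls in HA over time held in each alternative, and 6 to 8 members were called in IgG over time. In HA against IgG at T0, leaving out 1 library gave 0 to 1 called members. At T3 the count of 2 became 1 with RLE scaling, 1 with total counts and 1 with a minimum absolute log2 fold change of 1, and ran from 1 to 3 when 1 library was left out. With the animal as a replicate block, the counts of called members were 1 at T0, 2 at T3 and 0 in the interaction, as without it, and Jun at T3 had a log2 fold change of 0.76 (adjusted p = 0.0359). With the replicate number as a block, which pairs different animals over time, 8 members were called in HA and 7 in IgG. The paired fits changed no other member's call.

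Over all members, comparisons and alternatives, 492 log2 fold changes kept their direction and side of the threshold, 14 lost a call, 1 gained one and 14, none of them called, changed sign. Leaving out 1 library, the log2 fold change of HA over IgG ranged from -0.438 to 0.094 for Jund and from -0.159 to 0.696 for Atf3 at T0, and from -0.064 to 0.358 for Junb and -0.244 to 0.237 for Atf3 at T3. Atf3 at T3 was also at 0.181 without a filter, 0.116 with at least 5 counts in 1 library and 0.203 when all 12 libraries were fitted together. In the interaction the ranges were -0.237 to 0.921 for Fosb, -1.375 to 2.045 for Fosl1 and -0.559 to 0.31 for Atf3, and Fosb was at -0.168 with total counts. The causes were not tested.

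Of the list counts, 300 stayed within 1.5 times the main value and 50 did not. Over all genes, calls in IgG over time numbered 285, and 519 without a filter, 704 when all 12 libraries were fitted together and 167 to 333 with 1 library left out. Interaction calls numbered 34, and 20 with RLE scaling, 8 with total counts, 87 with DESeq2, 156 with the replicate block and 5 to 95 with 1 library left out. The median of the interaction moved from 0.18 to -0.18 with total counts. The share of calls that were higher in HA against IgG at T3 was 53.6%, or 69% with all 12 libraries fitted together, and in IgG over time 81.1% and 63% without a filter. HA against IgG at T3 gave 1578 calls, and 849 without HA T3 replicate 4. The low depth of the IgG T3 libraries (88136 to 248522 counts) limits comparisons with that group.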
